A study of Mus musculus with 4 samples.

Results

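The SLC25 family of mitochondrial carriers was represented by 47 genes of the 54532 in the deposited count tables. The members were chosen by name only, as the protein-coding genes whose symbol begins with Slc25a followed by a number. No measured value entered that rule. Family genes with other names, such as Ucp1 and Mtch1, are not among the 47. The study compared RNA from mouse breast tumour cells, labelled primary cancer-associated fibroblasts, in 2 unirradiated libraries (A and B) and 2 irradiated libraries (A and B) that received 6 Gy. Both groups came from Dll1 mCherry+ MMTV-PyMT tumours, in which a mammary tumour virus promoter drives the polyoma middle T oncogene in mammary epithelium, on the C57BL/6 strain. The treatment label of the irradiated group reads targeted radiation at day 6, and that of the other group no radiation. Every title carries a mark for day 6. Neither the mouse age nor the interval between radiation and collection was stated. The protocol names a PDGFRa antibody used to detect fibroblasts after enzymatic digestion of the tumours and does not name a sort. Nothing in the labels ties A and B to different animals, and the p-values therefore reflect library-to-library spread alone, perhaps of technical origin.

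SLC25 proteins sit in the inner mitochondrial membrane, with a few exceptions in the outer membrane or in peroxisomes, and exchange small molecules between the matrix and the cytosol. They carry ADP and ATP, phosphate, citrate and other organic acids, amino acids, acylcarnitines, cofactors and iron, and so connect the respiratory chain and the tricarboxylic acid cycle with cytosolic synthesis. The proteins are encoded in the nucleus, made in the cytosol and inserted by the import machinery, and several members have no agreed substrate.

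Total counts ranged from 13011489 to 23763830 per library, so that 1 count corresponded to 0.0404 to 0.0809 counts per 1000000 (CPM, with library totals scaled by the TMM method). The labelled cell type was checked against marker genes. Epithelial markers summed to 9421 and 9444 CPM in the unirradiated libraries and to 8625 and 8967 CPM in the irradiated ones, against 587 to 621 CPM and 1824 to 1837 CPM for 12 fibroblast markers, so epithelial RNA was abundant in libraries labelled as fibroblasts. Pdgfra, which encodes the receptor that the antibody binds, was at 5.59 ± 0.223 CPM without and 23.7 ± 1.17 CPM with irradiation (mean ± SD, n = 2 each, as for all such values here). Markers of macrophages (291 and 292 against 751 and 754 CPM) and of endothelium (61.4 and 64.2 against 152 and 163 CPM) were also higher after irradiation, whereas T and NK cell markers (9.30 and 9.96 against 3.91 and 4.04 CPM) were lower. Counts from the mitochondrial genome made up 10.6% and 10.7% of the unirradiated and 2.97% and 3.03% of the irradiated libraries. The part of these shifts in the carrier values was not tested, and in bulk RNA fewer cells of a type and less RNA per cell cannot be told apart.

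Falls outnumbered rises among the carriers. Of the 42 members with enough counts to test, 8 rose, 19 fell and 15 did not pass an adjusted p of 0.05 (edgeR quasi-likelihood test, Benjamini-Hochberg adjustment over 15961 genes). Over all tested genes the same test called 66.4%, with 33.9% higher and 32.5% lower. The carriers had 64.3% called, 19% higher and 45.2% lower. Their median log2 fold change, irradiated minus unirradiated, was -0.19, beside -0.0042 for all tested genes. The summed expression of the 47 genes was 2602 and 2646 CPM in the unirradiated libraries and 2397 and 2435 CPM after irradiation, so the groups did not overlap.

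Most of these changes were small. The median absolute log2 fold change of the tested members was 0.34, beside 0.46 for all tested genes and 0.42 for those with a mean of at least 1 CPM. Of the 27 called members, 18 had changed by less than 1.5-fold. Among the 42, Slc25a34 alone was called and had moved by more than 2-fold, where 10.8% of all genes were called and over 2-fold higher and 10.1% over 2-fold lower. Tested against a 1.5-fold change rather than no change, Slc25a25 was higher and Slc25a34 and Slc25a10 were lower, against 12.7% and 11% of all genes. The libraries of the groups did not overlap for 36 of the 42 members, beside 82.5% of all tested genes. DESeq2 called 5 members higher and 11 lower. It called 4493 of all genes higher and 3424 lower, where the main test called 5409 and 5184.

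**Figure D1:**
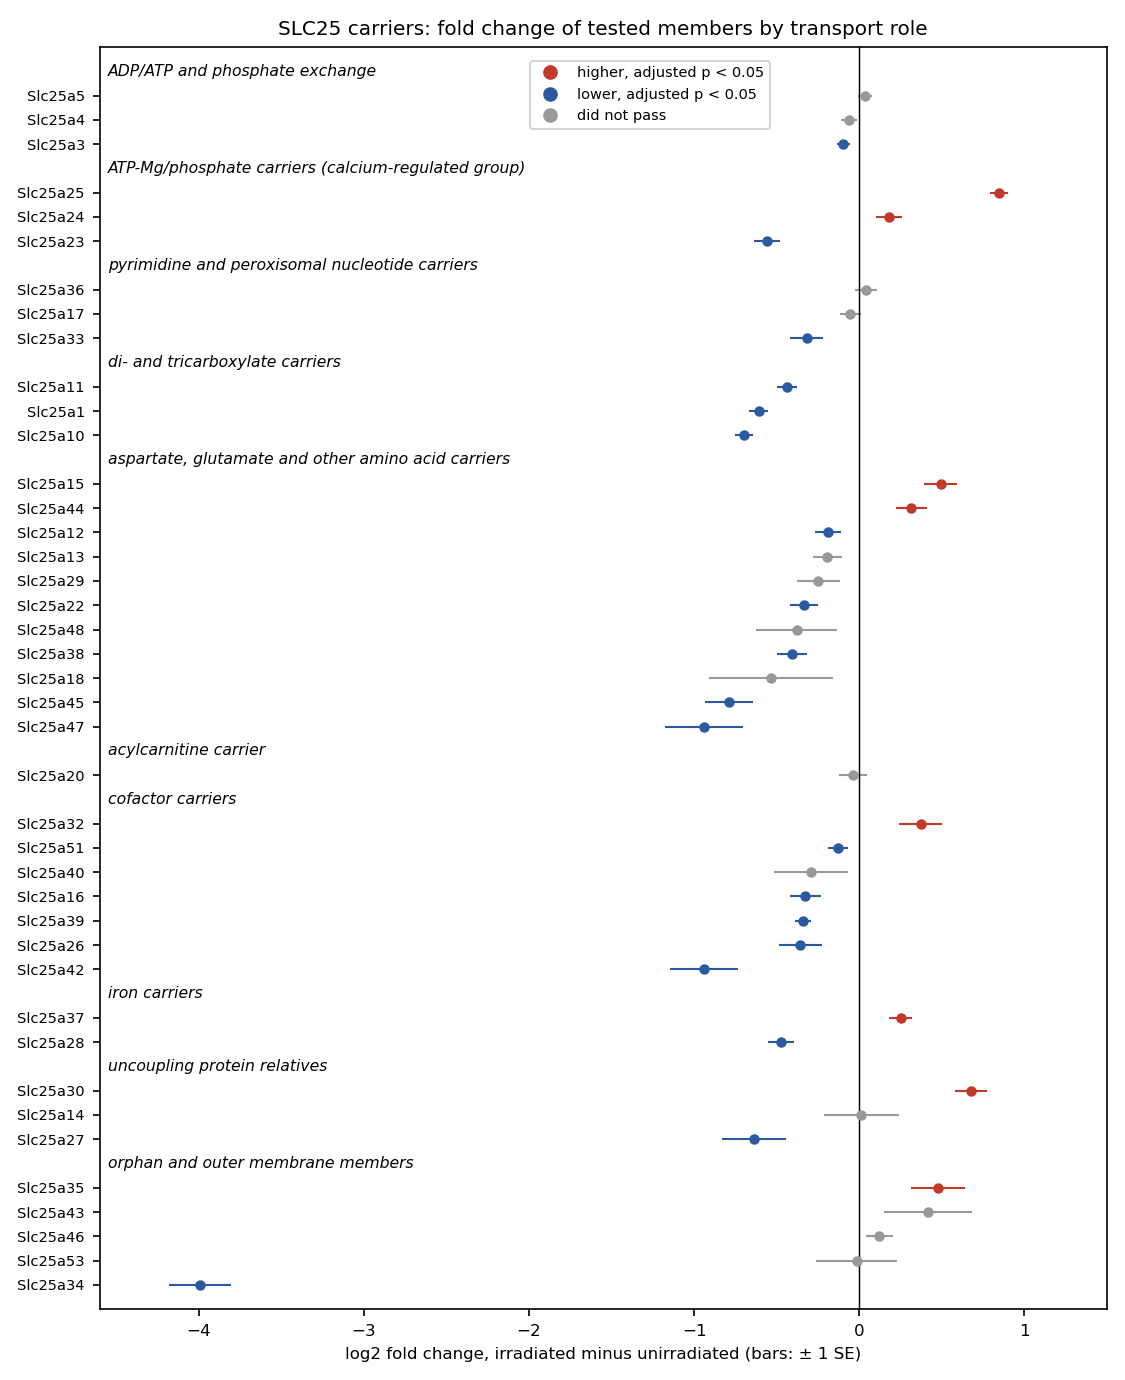
Log2 fold change (irradiated minus unirradiated, x axis) of 41 of the 42 tested members, grouped by transport role, with bars of 1 SE and colour for the test result. All 3 tested di- and tricarboxylate carriers lie left of zero, Slc25a34 stands alone at -3.99 and Slc25a25 is farthest right at 0.84.

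The plot of fold changes by role shows where the members of each transport group lay. Of the 6 members with no agreed substrate or with a place in the outer membrane, 5 were tested, 1 rose, 1 fell and 3 did not pass, and the median log2 fold change was 0.12. That fall was that of Slc25a34 (ENSMUSG00000040740, chr4:141618824-141623821, mm10), an orphan carrier. It was at 24.0 and 21.3 CPM in the unirradiated libraries (A first, as throughout) and at 1.32 and 1.49 CPM in the irradiated ones. Both irradiated libraries were thus far below both unirradiated ones, on 402 and 263 counts against 22 and 37. The fall was 15.9-fold, a log2 change of -3.99 (SE 0.187, edgeR adjusted p = 1.44e-28), and ranked 67 among the falls of the 15961 tested genes.

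Slc25a35, the nearest relative of Slc25a34 in the family and also without an agreed substrate (chr11:68968131-68974365), was at 9.01 and 5.74 CPM without and 10.2 and 10.9 CPM with irradiation. Both irradiated values were higher, and the unirradiated libraries differed from each other more than the irradiated ones did. The rise of 0.48 on the log2 scale (SE 0.165, edgeR adjusted p = 0.00909) was not stable to leaving out a library. It did not pass without unirradiated B (0.24) or without irradiated B (0.43), and without unirradiated A it was 0.88. In these unstranded libraries 31.3% of the exonic bases of Slc25a35 overlap exons of Rangrf on the other strand, so the reads of the overlap cannot be assigned to either gene. Per kilobase, Slc25a34 made up 78.6% and 83.6% of the pair's summed level in the unirradiated libraries and 15.2% and 15.9% after irradiation. These shares use the full length of Slc25a35, with the overlap included, and were not corrected for the reads of the overlap. Slc25a43, Slc25a46, an outer membrane member that acts on mitochondrial shape, and Slc25a53 did not pass, with log2 differences of 0.42, 0.12 and -0.02.

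The sequence before the annotated start of Slc25a34 is shown because this gene had the largest change of the tested members. It is the 250-base stretch before the RefSeq start on GRCm38.p6 at chr4:141623835-141624084, read 5′ to 3′ on the minus strand from which the gene is transcribed, with CpG dinucleotides in capitals.
Slc25a34 promoter: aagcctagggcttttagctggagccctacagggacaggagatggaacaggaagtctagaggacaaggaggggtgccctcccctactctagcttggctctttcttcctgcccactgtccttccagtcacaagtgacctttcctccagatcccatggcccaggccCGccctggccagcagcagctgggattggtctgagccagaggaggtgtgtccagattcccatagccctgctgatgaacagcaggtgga
This stretch holds 1 CpG and has 58.4% GC. RefSeq promoter windows of 300 bases (250 before to 50 after the start) matched 36 of the 47 members, in 46 windows. The median window held 15 CpG among the members and 7 among all 32851 windows. The Slc25a34 window, also with 1 CpG, was the lowest of the 46, which ran from 1 to 51 with the next lowest at 3. Of all windows, 14.1% held 1 CpG or none.

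All 6 tested genes with a body within 100 kb of Slc25a34 also had lower values after irradiation and passed the test. Over all tested genes 32.5% were called lower, and whether the fall was shared across the region was not tested. Tmem82, which starts 191 bases beyond the 3′ end of Slc25a34, had 97 and 104 counts without and 34 and 47 counts with irradiation, a log2 change of -1.82 (edgeR adjusted p = 2.08e-09). Fblim1, an adaptor of cell-matrix adhesions, fell by 1.24 on the log2 scale and B330016D10Rik by 1.17. Ddi2, Plekhm2 and Spen had log2 changes of -0.58, -0.35 and -0.24. The fall of Slc25a34 was the largest of the 7 genes.

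**Figure D2:**
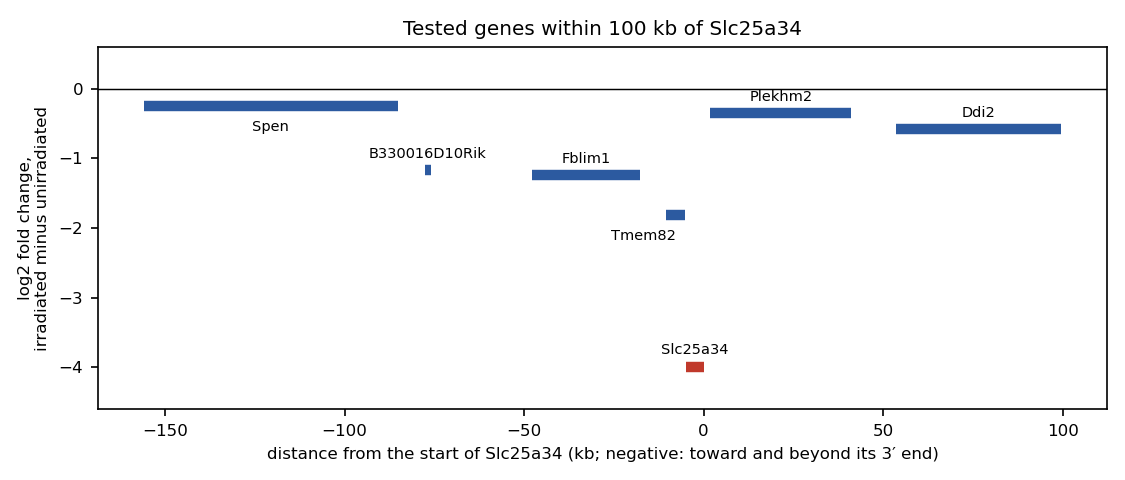
Log2 fold change (y axis) of Slc25a34 (red) and the 6 other tested genes within 100 kb (blue), drawn over their gene bodies by distance from the start of Slc25a34 in kilobases (x axis). Every bar lies below zero, with Slc25a34 at -3.99 and Tmem82 next at -1.82.

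The map of the neighbourhood of Slc25a34 shows that the other genes stayed between -0.24 and -1.82. Ucp1, a brown fat carrier of the family outside the naming rule, had 98 counts over both unirradiated libraries and 7 over both irradiated ones. Its log2 change was -4.26 (SE 0.493, edgeR adjusted p = 1.99e-11). That of Slc25a34 was -3.99 (SE 0.187), so the order of the falls of these genes was not resolved. Of 5 tested brown and white adipocyte markers 3 were higher, among them Cidea at 1.76, and Ucp1 alone was lower, while Adipoq, the adipocyte hormone gene, had 4 and 9 counts in the groups. Skeletal muscle markers summed to 22.5 and 24.0 CPM without and 9.68 and 11.3 CPM with irradiation, with 0 higher and 3 lower of 4 tested. Of these sums Mb alone held 15.2 and 15.7 CPM without and 4.15 and 5.25 CPM with irradiation. Acta1 did not pass (log2 difference -0.02). Among the untested muscle markers, on few counts, Myh1 and Myh2 had higher means after irradiation and Myh4, Tnnt3 and Pvalb lower ones. The part of these cell types in the fall of Slc25a34 was not tested.

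Among the carriers of energy metabolism, Slc25a4 and Slc25a5 exchange matrix ATP for cytosolic ADP, and Slc25a3 brings in the phosphate that ATP synthase needs. Slc25a5 had the highest level of the family, 224.8 CPM per kilobase of gene length without and 229.9 with irradiation, followed by Slc25a3 (88.1 and 82.4) and Slc25a4 (83.3 and 79.8). These 3 genes together held 46.2% and 45.3% of the summed level per kilobase of all members in the unirradiated libraries, and 50.4% and 50.6% after irradiation.

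Slc25a5 was at 370.3 and 369.6 CPM without irradiation and at 373.0 and 383.7 CPM with it. The log2 difference of 0.03 did not pass (edgeR adjusted p = 0.499). A processed pseudogene, Gm5560, matches 71.5% of the longest Slc25a5 transcript at 97% identity or more and had 16 to 21 counts per library. Reads that match both may have been counted for either gene or left out, so the level of Slc25a5 may be understated. Slc25a4 was at 198.8 and 193.4 CPM without and at 183.6 and 192.1 CPM with irradiation, and its log2 difference of -0.06 did not pass (edgeR adjusted p = 0.259). For neither gene did the groups overlap, but the gaps were narrower than the spread within the irradiated pair. Slc25a3 fell from 489.9 and 487.9 CPM to 454.4 and 460.0 CPM, a log2 change of -0.10 (SE 0.0405, edgeR adjusted p = 0.0317), and this call was lost when any 1 of the 4 libraries was left out.

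**Figure D3:**
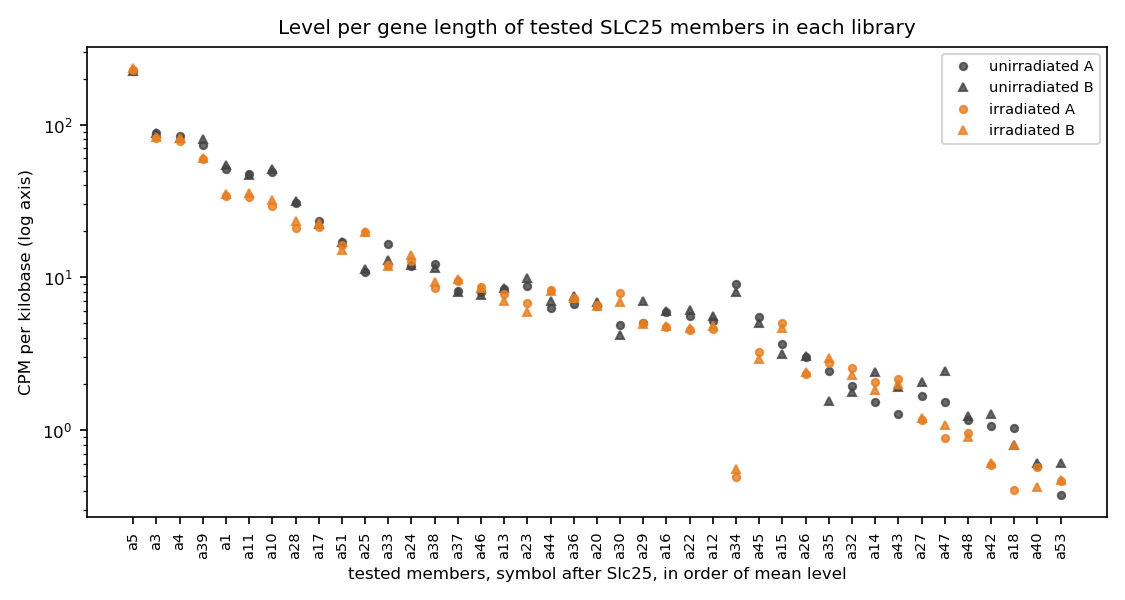
Level of 41 of the 42 tested members in CPM per kilobase of gene length (log y axis), in order of the mean level (x axis), for each of the 4 libraries. Slc25a5 leads in all 4, the levels span 473-fold from highest to lowest mean, and the irradiated values of Slc25a34 lie apart from its unirradiated ones.

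The plot of levels per kilobase shows the steps below the ADP/ATP carriers. Among the members, Slc25a39, a glutathione carrier, was next at 76.7 without and 60.4 with irradiation. Slc25a1 (52.9 and 34.6) and Slc25a11 (47.2 and 34.7) followed, with Slc25a10 close to them. Slc25a3 stood above Slc25a4 in all 4 libraries. Slc25a1 and Slc25a11 overlapped in the irradiated libraries, and Slc25a10 lay between them without irradiation and below both with it.

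The ATP-Mg/phosphate carriers, which load or unload the matrix pool of adenine nucleotides under control of calcium, moved in opposite directions. Of 3 tested members 2 rose and 1 fell, and their summed expression was 177.6 CPM without and 235.7 CPM with irradiation. Slc25a25 (chr2:32414487-32451445) was at 84.8 and 89.2 CPM without irradiation and at 155.0 and 156.6 CPM with it. Its libraries were tight within each group, and it had the largest rise of the family, 1.80-fold, a log2 change of 0.84 (SE 0.0547, edgeR adjusted p = 1.46e-21). Slc25a23 fell from 46.2 and 52.5 CPM to 35.8 and 31.4 CPM, a log2 change of -0.56 (SE 0.0807, edgeR adjusted p = 1.28e-08). Slc25a24 was at 41.0 and 41.1 CPM without and 44.2 and 48.3 CPM with irradiation, a log2 change of 0.18 that passed narrowly (edgeR adjusted p = 0.0336) and was lost without unirradiated A, unirradiated B or irradiated B, and under DESeq2. Per kilobase, the share of Slc25a25 within these 3 genes was 34.3% and 34.1% in the unirradiated and 50.1% and 49.9% in the irradiated libraries, and that of Slc25a23 was 27.8% and 29.8% against 17.2% and 14.9%.

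Slc25a25 has 3 annotated starts in RefSeq, and the most upstream and most downstream are shown because this gene had the largest rise of the family and the starts differ in base composition. Capitals mark CpG dinucleotides, and both stretches of 250 bases before a start are read 5′ to 3′ on the minus strand of GRCm38.p6, at chr2:32451471-32451720 and chr2:32424067-32424316.
Slc25a25 upstream start: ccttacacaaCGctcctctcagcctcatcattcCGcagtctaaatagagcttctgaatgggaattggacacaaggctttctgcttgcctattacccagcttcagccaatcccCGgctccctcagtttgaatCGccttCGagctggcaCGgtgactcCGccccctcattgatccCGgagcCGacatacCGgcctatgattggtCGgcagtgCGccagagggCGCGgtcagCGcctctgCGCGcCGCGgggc
Slc25a25 downstream start: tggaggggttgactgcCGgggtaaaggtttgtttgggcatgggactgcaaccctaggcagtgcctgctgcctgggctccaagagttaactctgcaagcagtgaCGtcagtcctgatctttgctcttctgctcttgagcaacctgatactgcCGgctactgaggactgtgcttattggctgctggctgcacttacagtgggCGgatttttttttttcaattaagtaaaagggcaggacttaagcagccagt
The upstream stretch holds 19 CpG and the downstream one 4. The downstream stretch also holds the palindrome TGACGTCA, the full cyclic AMP response element, at 150 to 143 bases before the start. That motif, which reads the same on both strands, occurred in 2 member windows, those of Slc25a25 and Slc25a36, and in 1.79% of all windows. Slc25a36 did not pass (log2 difference 0.04), and counts per gene do not show which start was used.

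Genes around Slc25a25 did not share a direction. Ptges2, 8715 bases away, had a log2 change of 0.85 and Dnm1 of 2.33, whereas Ciz1 and 1110008P14Rik changed by -0.63 and -0.60. Naif1, whose exons cover 4.8% of those of Slc25a25 on the other strand, had a log2 difference of -0.053 (edgeR adjusted p = 0.81).

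All 3 tested di- and tricarboxylate carriers were lower, where 45.2% of the tested members and 32.5% of all tested genes were called lower. Their median log2 change was -0.61, and the summed expression of the group was 387.2 CPM without and 254.5 CPM with irradiation. Slc25a1, which exports citrate for lipid synthesis in the cytosol (chr16:17925223-17928219), fell from 111.4 and 117.4 CPM to 73.8 and 75.9 CPM, a log2 change of -0.61 (SE 0.0579, edgeR adjusted p = 2.03e-14). Slc25a10, which exchanges malate or succinate for phosphate (chr11:120491840-120499187), fell from 168.7 and 176.9 CPM to 101.6 and 110.4 CPM, a log2 change of -0.70 (SE 0.0530, edgeR adjusted p = 1.92e-18). The drop of Slc25a11, the oxoglutarate-malate carrier of the malate-aspartate shuttle, was from 100.2 and 99.8 CPM to 71.2 and 76.0 CPM, or -0.44 on the log2 scale (edgeR adjusted p = 2.34e-09). For each of the 3 genes both irradiated libraries lay well below both unirradiated ones. With the dependence of fold change on length and GC content of genes taken out, Slc25a1 and Slc25a11 stood at -0.38 and -0.19, and both still passed.

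**Figure D4:**
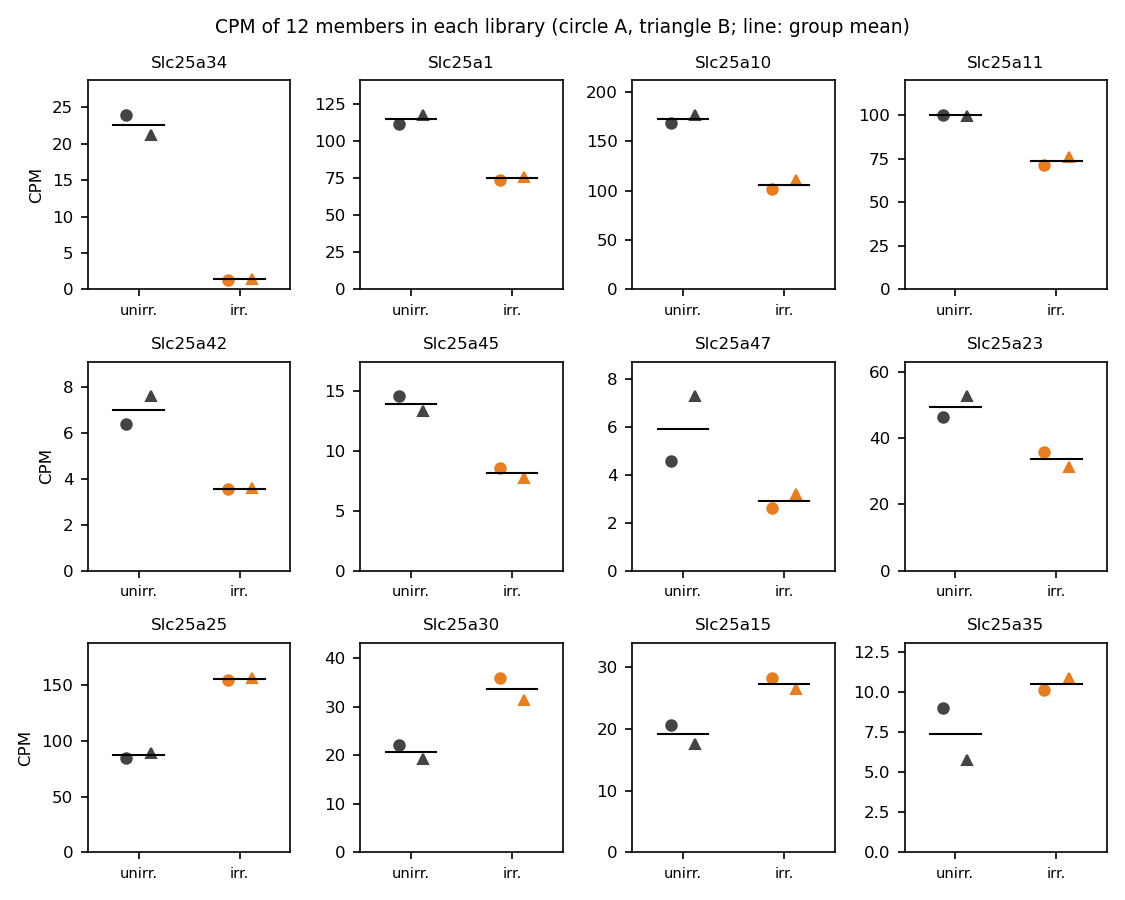
CPM (y axis, from 0) of 12 members in the 2 unirradiated and 2 irradiated libraries, with circles for A, triangles for B and lines for group means. The 12 were picked from members called higher or lower. The groups do not overlap in any panel, as for 82.5% of all tested genes. The unirradiated libraries lie farthest apart, relative to their mean, for Slc25a47 and Slc25a35.

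The plot of 12 members by library places these 3 falls beside those of the smaller amino acid and cofactor carriers. Of 12 members grouped with the amino acid carriers, among them relatives of Slc25a29, 11 were tested. Of these 2 rose, 5 fell and 4 did not pass, with a median log2 change of -0.33. Slc25a15, the ornithine carrier of the urea cycle, rose from 20.6 and 17.6 CPM to 28.3 and 26.4 CPM, a log2 change of 0.49 (SE 0.102, edgeR adjusted p = 2.43e-05). Slc25a44, a carrier of branched-chain amino acids, rose from 22.7 and 24.9 CPM to 29.7 and 29.2 CPM. Its log2 change was 0.31 (edgeR adjusted p = 0.00272), and 0.24 without unirradiated A, where it did not pass.

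The falls were led by members related to the basic amino acid carrier Slc25a29. Slc25a47, best known from liver, was at 4.59 and 7.28 CPM without and 2.65 and 3.23 CPM with irradiation, a log2 change of -0.94 (SE 0.236, edgeR adjusted p = 4.17e-04). The unirradiated libraries differed widely, and without unirradiated B the change was -0.61. Slc25a45 fell from 14.6 and 13.3 CPM to 8.60 and 7.79 CPM, a log2 change of -0.79 (SE 0.144, edgeR adjusted p = 2.56e-06). Slc25a29 itself was at 13.1 and 18.3 CPM without and 13.0 and 12.8 CPM with irradiation and did not pass (edgeR adjusted p = 0.093), although it passed at -0.50 without unirradiated A. Slc25a48, the other relative, was at 3.94 and 4.21 CPM against 3.25 and 3.03 CPM and did not pass (log2 difference -0.38).

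Slc25a38, which brings in glycine for the first step of haem synthesis, fell from 33.5 and 31.7 CPM to 23.3 and 25.6 CPM, a log2 change of -0.41 (edgeR adjusted p = 7.63e-05). Slc25a22, the glutamate carrier with the higher level per kilobase, fell by 0.33 on the log2 scale, and Slc25a18, the other, had a log2 difference of -0.53 on a mean of 1.46 CPM that did not pass. The aspartate-glutamate carriers Slc25a12 and Slc25a13, which drive the malate-aspartate shuttle, were both at -0.19, where Slc25a12 passed (edgeR adjusted p = 0.0347) and Slc25a13 did not (edgeR adjusted p = 0.0514). The call of Slc25a12 was lost without unirradiated B, irradiated A or irradiated B, and Slc25a13 passed at -0.25 without irradiated A.

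All 8 cofactor carriers were tested. Of these 1 rose, 5 fell and 2 did not pass, and the summed expression was 386.6 CPM without and 324.3 CPM with irradiation. Slc25a42, a coenzyme A carrier, was at 6.38 and 7.61 CPM without and 3.55 and 3.63 CPM with irradiation, a log2 change of -0.94 (SE 0.209, edgeR adjusted p = 7.65e-05). Its relative Slc25a16, with 84.9% and 82.7% of the pair's level per kilobase without and 88.9% and 88.8% with irradiation, fell from 28.6 and 29.1 CPM to 22.8 and 23.1 CPM, or -0.33 on the log2 scale (edgeR adjusted p = 0.00177). Slc25a39, the cofactor carrier with the highest level per kilobase, fell from 202.9 and 220.1 CPM to 165.1 and 167.6 CPM, a log2 change of -0.34 (edgeR adjusted p = 9.84e-09). Slc25a40, its glutathione-carrying relative, was at 4.89 and 5.10 CPM against 4.81 and 3.55 CPM and did not pass.

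The S-adenosylmethionine carrier Slc25a26 had a log2 change of -0.36 and the NAD carrier Slc25a51 of -0.13. Both calls were lost in some leave-one-out fits, those of Slc25a26 without irradiated A or B and those of Slc25a51 without unirradiated A, unirradiated B or irradiated B. Slc25a32, which brings folate into the matrix, was at 11.8 and 10.8 CPM without and 15.6 and 14.0 CPM with irradiation, a log2 change of 0.37 (SE 0.132, edgeR adjusted p = 0.0118). That call did not hold without unirradiated B (0.33) or without irradiated A (0.32), nor with the dependence on length and GC taken out (0.08).

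The mitoferrins, which bring iron into the matrix for haem and iron-sulphur clusters, moved apart. Slc25a28, the form of most tissues, fell from 46.7 and 47.5 CPM to 31.9 and 35.5 CPM, a log2 change of -0.47 (edgeR adjusted p = 4.18e-07). Slc25a37, the form of red cell precursors, rose from 49.0 and 48.1 CPM to 57.3 and 58.3 CPM, a log2 change of 0.25 (SE 0.0698, edgeR adjusted p = 0.0013). Per kilobase the share of Slc25a28 in the pair was 79.1% and 79.7% without and 68.9% and 70.8% with irradiation. With the dependence on length and GC taken out neither passed, at -0.10 and 0.03. Erythroid markers, of which 5 fell and 1 rose among 6 tested, summed to 25.3 and 23.1 CPM without and 9.02 and 3.19 CPM with irradiation, and their part in these values was not tested.

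**Figure D5:**
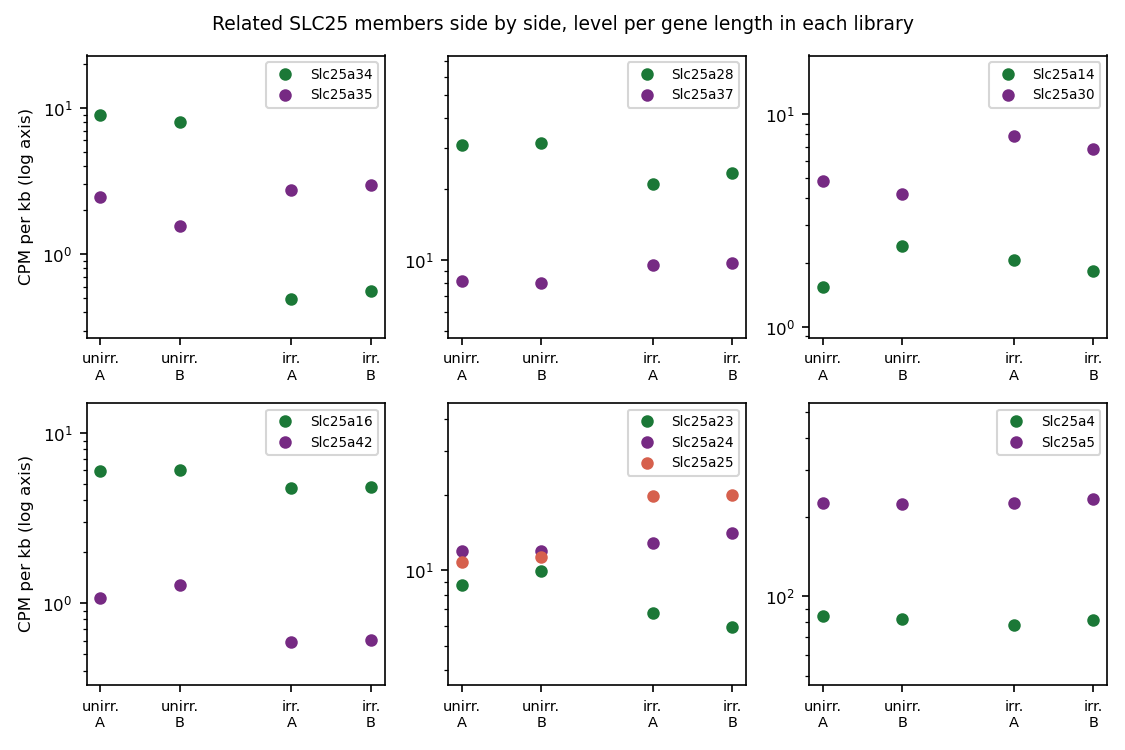
Level in CPM per kilobase (log y axis) of related members in each of the 4 libraries (x axis), in 6 panels. The order of Slc25a34 and Slc25a35 is reversed between the groups, Slc25a28 and Slc25a37 approach each other, and Slc25a25 lies below Slc25a24 without and above it with irradiation.

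The plot of related members side by side also shows the uncoupling protein relatives. Slc25a30, which resembles the uncoupling proteins in sequence, rose from 22.1 and 19.2 CPM to 36.0 and 31.4 CPM, a log2 change of 0.68 (SE 0.0972, edgeR adjusted p = 1.01e-08). Its closest relative Slc25a14 was at 3.64 and 5.66 CPM without and 4.87 and 4.32 CPM with irradiation, with overlapping groups and a log2 difference of 0.01. Slc25a27, a member best known from brain, fell from 6.62 and 8.09 CPM to 4.57 and 4.72 CPM, a log2 change of -0.64 (SE 0.195, edgeR adjusted p = 0.0033), which did not pass under DESeq2 (adjusted p = 0.0963). Neural markers did not share a direction, with 2 of 4 tested markers higher and 2 lower. Map2 alone was at 66.1 and 61.8 CPM without and 102.8 and 101.7 CPM with irradiation, and the other markers summed to 7.10 and 7.20 CPM against 3.43 and 4.16 CPM. Their part in the fall of Slc25a27 was not tested.

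Slc25a33, which carries pyrimidine nucleotides, fell by 0.32 on the log2 scale, from 31.0 and 24.5 CPM to 22.7 and 22.4 CPM. It did not pass without unirradiated A (-0.12), under DESeq2 or with the dependence on length and GC taken out (-0.03), and 14.9% of its exonic bases overlap an antisense gene. The pyrimidine carrier Slc25a36 and the peroxisomal carrier Slc25a17 did not pass. Neither did Slc25a20, which carries acylcarnitines into the matrix for fatty acid oxidation, at 31.6 and 33.3 CPM without and 31.9 and 31.3 CPM with irradiation.

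Calls that withstood reprocessing were fewer. Of the 27, 13 kept direction and call under all 13 alternatives of scaling, filter, tool, trend removal, replicate block and leave-one-out. These were the rises of Slc25a25, Slc25a30 and Slc25a15 and the falls of Slc25a34, Slc25a10, Slc25a1, Slc25a11, Slc25a23, Slc25a38, Slc25a39, Slc25a42, Slc25a45 and Slc25a47. DESeq2 ended 11 calls, those of Slc25a3, Slc25a12, Slc25a16, Slc25a22, Slc25a24, Slc25a26, Slc25a27, Slc25a32, Slc25a33, Slc25a35 and Slc25a51. Without a filter on low counts Slc25a3, Slc25a12, Slc25a26 and Slc25a51 did not pass, and with a stricter filter or upper-quartile scaling Slc25a24 did not. Taking out the dependence on length and GC left Slc25a25 at 0.55, Slc25a15 at 0.29, Slc25a38 at -0.27 and Slc25a39 at -0.22, smaller than in the main test and still called. It left Slc25a12 at -0.44, Slc25a16 at -0.51, Slc25a3 at -0.32 and Slc25a51 at -0.325, larger than in the main test.

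The 5 members removed by the filter on low counts had few counts. Slc25a2, a relative of the ornithine carrier, had 19 counts over both unirradiated and 3 over both irradiated libraries, a scaled ratio of unirradiated to irradiated of 9.01 (exact 95% interval 2.65 to 47.5, for counting error only). It was called lower when no filter was used and when irradiated A was left out. Slc25a41, an ATP-Mg/phosphate carrier, had 5 and 4 counts, a ratio of 1.78 with an interval of 0.383 to 8.96. Slc25a31, the ADP/ATP carrier of the germ line, had 2 and 3 counts. Slc25a21, an oxodicarboxylate carrier, had 0 and 2 counts and Slc25a54 had 3 and 0, so no difference was detectable for them at this depth.

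NRF1, ERR, ETS, TCF/LEF and E-box motifs were sought on both strands of the 46 member windows. The palindromic NRF1 consensus and the ERR motif TNAAGGTCA were in 0 member windows, and in 0.97% and 1.28% of all windows. The ETS motif CCGGAAGT was in 1 member window, that of Slc25a20, and in 3.89% of all. The TCF/LEF motif CTTTGATC was in 3 member windows, those of Slc25a22, Slc25a28 and Slc25a43, and in 0.94% of all. The E-box CACGTG was in 8 member windows (17.4%), those of Slc25a1, Slc25a13, Slc25a14 with 2 windows, Slc25a15, Slc25a31, Slc25a33 and Slc25a36, and in 7.15% of all. Of the genes with an E-box, Slc25a15 rose, Slc25a1 and Slc25a33 fell, and the rest did not pass or were not tested.

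Genes that work with the carriers were compared from lists of 86 tested genes, of which 22 (25.6%) were higher and 29 (33.7%) lower, beside 33.9% and 32.5% of all tested genes. These shares are near the background or, for the rises, below it. Family genes outside the naming rule moved both ways. Ucp2 fell from 577.3 ± 17.2 to 421.5 ± 1.66 CPM, a log2 change of -0.45, Mtch1 rose by 0.28, Mtch2 did not pass at -0.09 (it passed at -0.17 without irradiated B and at -0.14 with upper-quartile scaling), and Ucp3 had 2 counts in each group. Both subunits of the mitochondrial pyruvate carrier, an unrelated inner membrane carrier, fell. Mpc2 went from 68.0 ± 3.81 to 48.3 ± 2.59 CPM, a log2 change of -0.48, and Mpc1 from 6.92 ± 2.45 to 4.62 ± 0.149 CPM, which was lost in 3 of the 4 leave-one-out fits, with -0.16 without unirradiated B, and was -0.90 without unirradiated A. The call of Mpc1 was also lost under DESeq2 and without a filter.

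Around the citrate carrier Slc25a1, 4 of 5 enzymes of citrate export and lipid synthesis rose and 1 fell. The fall was Acly, which splits exported citrate, from 477.4 ± 10.2 to 297.3 ± 5.84 CPM, a log2 change of -0.68 (edgeR adjusted p = 1.62e-22). The rises of Acss2, Me1 and Acaca were 0.44, 0.28 and 0.25, and the outer membrane pore gene Vdac2 rose by 0.14. Acaca and Vdac2 lost both call and sign with the dependence on length and GC taken out, and Acss2 lost its call at 0.09. Of 4 malate-aspartate shuttle enzymes Got1 and Got2 rose (0.24 and 0.15) and Mdh1 fell (-0.33). The call of Got2 was lost without unirradiated B, and that of Vdac2 without unirradiated A, unirradiated B or irradiated B. Neither Got2 nor Vdac2 passed with upper-quartile scaling. Of 17 tricarboxylic acid cycle genes 5 were higher and 7 lower, with Ogdh at 0.62, Cs at 0.39, Sdhb at -0.73 and Idh2 at -0.39. None of 4 tested carnitine shuttle enzymes passed.

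Beside the glycine carrier and the mitoferrins, 8 of 16 genes of haem and iron-sulphur cluster synthesis fell and 2 rose. Uros and Glrx5 changed by -0.87 and -0.60, and the transferrin receptor Tfrc fell from 308.3 ± 6.09 to 207.9 ± 11.2 CPM, a log2 change of -0.57. Beside the folate carrier, 3 of 8 mitochondrial one-carbon enzymes rose, Mthfd1l by 0.72, Mthfd2 by 0.53 and Shmt2 by 0.22, and Amt of the glycine cleavage system fell by 0.42 on the log2 scale. Of 13 genes that import carriers into the inner membrane, the receptor Tomm70a rose by 0.50 and 5 fell, led by the small chaperones Timm10b (-1.21), Timm8b (-0.70) and Timm13 (-0.54). Of 10 regulators of mitochondrial biogenesis, 3 rose, with Pprc1 at 0.71 and Nrf1 at 0.35, and 2 fell, Tfb1m (-0.76) and Esrra (-0.25). The call of Tfb1m was lost without irradiated B, that of Esrra without unirradiated A, and both under DESeq2.

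Taking out the dependence on length and GC ended further calls among these genes. Timm8b then stood at -0.02, Tomm70a at 0.08, Nrf1 at 0.02, Esrra at -0.12, Got2 at 0.07 and Mpc1 at -0.36, and none of them passed. Mtch2 passed at -0.47. Genes still called that moved by over 1.5 times were Timm13 (-0.15), Mdh1 (-0.20), Cs (0.18), Idh2 (-0.22), Got1 (0.42) and Mpc2 (-0.79).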

How the data were processed

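Poly(A)-selected RNA of 4 libraries was sequenced from non-directional libraries, per the labels' protocols. Per the submitters' processing notes, the authors used STAR 2.5, HTSeq 0.6.1 and DESeq2 with mm10. The annotation release and the settings were not given in the sources used here. What the authors deposited are raw whole-number counts for each gene, along with each gene's length, named so per the file headers.

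Groups came from the labels. Counts were fitted over all genes with edgeR 4.0.16 in R 4.3.3 (filterByExpr, TMM scaling, quasi-likelihood F-test, no legacy dispersion), with no replicate block, and p-values were adjusted by Benjamini-Hochberg over the 15961 genes that passed the filter on low counts, at 0.05. CPM used TMM-scaled totals, and levels per kilobase divided CPM by the deposited length. The median chi-square per gene was 2.11 and 2.14 times that from counting within groups and 28.1 to 30.5 times between them, so all 4 libraries were kept. A minus B differences of the groups correlated at 0.0116 over genes, so no shift by letter shared between the groups was visible. This cannot exclude that a letter marks a shared animal or day, which no label states. No batch is named in the labels, and one aligned with irradiation cannot be told apart from it.

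Although the naming rule used no measured value, members and lists were chosen with earlier results of these data known. Values per library are given for up to 8 rises and 8 falls of members averaging 1 CPM or more, the 6 members highest per kilobase and their paralogues. From each related list, up to 4 called genes with the largest changes are named. Neighbours and other members described beside a result were chosen after their values were seen. The results were recomputed with RLE or upper-quartile scaling, DESeq2 1.42.0, no filter, a stricter filter (1 CPM in 2 libraries), a replicate block, a length and GC trend removed by mgcv 1.9.3, each library left out, a 1.5-fold null and a threshold of 0.01. Scripts were tested on simulated data. Overlaps and copies came from GENCODE M21, and promoters from RefSeq on GRCm38.p6. No protein sequence was used here. Values of 1 tested member and 1 related gene that count in the totals are not reported here.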

Additional observations from a re-analysis of the deposited data

How the results depend on the processing

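The counts of called carriers, 8 higher and 19 lower, became 5 and 11 under DESeq2 and 1 and 2 against a 1.5-fold null. Over all genes, 5409 higher and 5184 lower became 4493 and 3424 under DESeq2 and 2032 and 1754 against that null. Leaving out 1 library each gave 5 to 7 higher and 15 to 18 lower (the fewest higher without unirradiated replicate B), where the lone library of a group was assumed to vary like the other group's. The related lists went from 22 higher and 29 lower to 1 and 6 against a 1.5-fold null, with 20 to 23 and 27 to 30 in the leave-one-out fits. With a replicate block by library letter the counts of carriers were 8 and 19 and no carrier's call changed. The related lists then had 24 higher and 29 lower. No label says what a shared letter stands for. RLE scaling and the legacy dispersion of edgeR, an alternative added after seeing the data, changed no carrier's call. Over all genes, removing the length and GC trend gave 4728 higher and 5340 lower. For the carriers it gave 8 higher and 21 lower and moved 15 called ones by over 1.5 times. It ended the calls of 5 of these, Slc25a24, Slc25a28, Slc25a32, Slc25a33 and Slc25a37, and called 5 others with unchanged sign, Slc25a5 (0.28), Slc25a13 (-0.24), Slc25a20 (-0.20), Slc25a40 (-0.65) and Slc25a43 (0.73). Among the carriers and named related genes called with or without the trend, it changed 4 signs. Slc25a4 became 0.14, Slc25a36 -0.37, Vdac2 -0.0017 and Acaca -0.0752, and with the replicate block and the trend removed 0.14, -0.37, -0.0031 and -0.0673. The cause was not tested. The filter on low counts left 5 carriers untested, of which Slc25a2 was called lower without the filter and in the fit without irradiated replicate A, and the intervals given cover counting error only.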
